A study of Mus musculus with 4 samples.

Results

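The smooth muscle and contractile genes examined here were 9 genes given by name, *Acta2*, *Tagln*, *Tagln2*, *Myl9*, *Cnn1*, *Cnn2*, *Tpm1*, *Tpm2* and *Cald1*. Of these, 8 had a row among the 20197 genes of the table, and no row carried the identifier of *Cnn1* (ENSMUSG00000001349), which is not analysed here. RNA was measured in 4T1 cells, a wild type mouse mammary tumor line used as a model of metastatic breast cancer. The sort used MitoSpy Red (20 nM), a dye that accumulates in mitochondria according to their membrane potential (MMP), and separated high MMP from low MMP cells, each gate holding 5% of the population. There were 2 samples of each, all from cultured cells of the same line in the same medium. The study counts them as independent experiments, and its labels do not say whether a replicate number marks a high and a low sample of the same experiment.

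In smooth muscle, thin filaments of actin slide along myosin II filaments, and calponins, transgelins, tropomyosins and caldesmon bind along the actin filament. Many of their genes are switched on by serum response factor (SRF), which binds the CArG box in promoters together with myocardin or the myocardin-related factors MRTF-A and MRTF-B. During an epithelial-to-mesenchymal transition (EMT), epithelial cells can take up part of this program, and *Acta2*, *Tagln* and *Cnn1* are used as markers of it. Some relatives in the same families, such as *Tagln2* and *Cnn2*, are made in many cell types that are not muscle.

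Promoter sequences are shown for the member that stood out between the groups (*Cnn2*), for an abundant member (*Tagln2*) and for both members at the lowest levels (*Myl9* and *Acta2*). They are RefSeq sequences of the reference strain on GRCm38.p6, 250 bases before to 50 bases after the annotated start, 5′ to 3′ on the gene's strand. *Cnn2* is at chr10:79988350-79988649 (+), *Tagln2* at chr1:172499996-172500295 (+), *Myl9* at chr2:156775214-156775513 (+) and *Acta2* at chr19:34255324-34255623 (-). Capitals mark a strict CArG box (CC, then 6 bases that are each A or T, then GG, on either strand) in *Cnn2* and *Myl9*, and the element CATTCC, bound by TEAD factors, on either strand in *Tagln2* and *Acta2*.
Cnn2: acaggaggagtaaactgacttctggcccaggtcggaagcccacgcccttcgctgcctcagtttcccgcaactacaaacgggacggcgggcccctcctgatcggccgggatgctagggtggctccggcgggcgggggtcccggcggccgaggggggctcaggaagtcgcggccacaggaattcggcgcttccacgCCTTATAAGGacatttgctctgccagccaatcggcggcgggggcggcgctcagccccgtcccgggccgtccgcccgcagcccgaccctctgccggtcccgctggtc
Tagln2: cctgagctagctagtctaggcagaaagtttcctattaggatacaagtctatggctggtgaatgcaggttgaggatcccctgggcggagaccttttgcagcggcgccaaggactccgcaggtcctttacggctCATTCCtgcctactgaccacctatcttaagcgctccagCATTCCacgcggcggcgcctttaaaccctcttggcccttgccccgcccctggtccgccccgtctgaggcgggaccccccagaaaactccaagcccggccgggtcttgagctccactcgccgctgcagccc
Myl9: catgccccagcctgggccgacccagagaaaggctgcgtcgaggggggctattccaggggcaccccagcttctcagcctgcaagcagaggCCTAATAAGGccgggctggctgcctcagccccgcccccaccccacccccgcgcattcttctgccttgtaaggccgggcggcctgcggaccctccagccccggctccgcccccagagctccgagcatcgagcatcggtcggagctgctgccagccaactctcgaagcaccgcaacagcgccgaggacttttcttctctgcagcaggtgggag
Acta2: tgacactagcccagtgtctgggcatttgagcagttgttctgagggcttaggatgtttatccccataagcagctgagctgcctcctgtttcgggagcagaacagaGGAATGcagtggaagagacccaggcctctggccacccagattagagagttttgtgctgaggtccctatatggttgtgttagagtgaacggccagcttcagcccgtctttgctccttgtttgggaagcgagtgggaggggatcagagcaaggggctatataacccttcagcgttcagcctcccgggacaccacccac

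The CArG box of *Cnn2* spanned bases -56 to -47 from the start, and that of *Myl9* bases -161 to -152. No other member window held this strict form, among the 8 members with a window (*Cald1* had 2 windows). *Tagln* had no window, so its promoter was not searched for any element. The *Acta2* promoter is known for CArG boxes that depart from the strict form. A search that allowed 1 C or G among the 6 inner bases matched *Acta2* at bases -84 to -75 and -34 to -25. It also matched *Myl9* at -99 to -90, and no other member with a window. Of all 32851 promoter windows of this length, 1.63% held the strict form, 8.5% the form with 1 C or G and 14.7% held CATTCC. The latter element was found in the windows of *Acta2*, *Tagln2* (2 copies), *Tpm1* and the first of *Cald1*, and did not overlap a CArG box. The windows of *Cnn2* and *Tpm1* were rich in CpG, with 33 and 27, against a median of 7 and an upper quartile of 20 over all windows. *Tagln2* had 18, *Myl9* and *Tpm2* 20 each, *Acta2* and *Cnn1* 6 each, and *Cald1* 6 and 5. A match is a description of these letters, and binding was not measured.

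The recovered depth was 22591970 to 26395015 reads per library, and levels are quoted below in normalized reads, a scale that gives each library a sum of 20000000. No library stood far apart, although high MMP replicate 1 had the largest median distance from the mean of the other 3 libraries (0.186 in log2, against 0.112 to 0.147 for the others). Markers of mammary epithelium were abundant, with *Krt8* at 13147 to 19554 normalized reads and *Epcam* at 3647 to 4619. Lineage markers of smooth muscle were at or near 0, since *Myh11*, smooth muscle myosin heavy chain, had 1 to 3 reads per library and *Des*, *Lmod1* and *Myocd* had no row. Among myoepithelial markers, *Krt14* was present (1100 to 1529), whereas *Krt5* had no row and *Trp63* had 1 to 5 reads. Of the leukocyte markers, *Ptprc* had 0 to 2 reads and *Cd68*, of macrophages, had 59.9 and 139 normalized reads in high and 149 and 91.2 in low MMP cells, while *Lyz2* and *Cd3e* had no row. The summed endothelial markers came to 1.74 to 6.20 normalized reads. Of the mitotic genes examined, 9 of 10 were higher in both high MMP libraries than in both low MMP libraries (14.3% of all genes averaging 10 or more were), with summed levels of 85398 and 93930 in high and 55021 and 56995 in low MMP cells. The largest log2 differences among them were those of *Ube2c* (1.30), *Nusap1* (1.22), *Ccnb1* (0.99) and *Aurka* (0.98). The exception was *Mki67*, with 11214 and 15182 in high and 14609 and 13537 in low MMP cells (log2 difference -0.11, SE 0.18). The part of the mitotic genes in the results below was not tested. In sorted bulk samples such as these, fewer cells expressing a gene and less RNA per cell cannot be told apart.

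To compare levels between genes, normalized reads were divided by the length of the gene's merged exons in kb. The members fell into 2 levels, one at or above 1206 per kb and one at or below 14.8. *Tagln2* was the most abundant (6666 ± 748 per kb, SD, n = 4 libraries), followed by *Tpm1* (2434 ± 312), *Cnn2* (2207 ± 442) and *Cald1* (1357 ± 137). The ranges of *Tpm1* (2037 to 2799) and *Cnn2* (1792 to 2634) overlapped, so their order does not hold beyond the spread, while those of *Tagln2* and *Cald1* overlapped with no neighbor. *Tpm2* (8.08 ± 4.66 per kb), *Tagln* (7.60 ± 1.67), *Acta2* (1.99 ± 0.292) and *Myl9* (0.343 ± 0.397) formed the lower level, where *Tpm2* and *Tagln* overlapped. The merged exons of *Cald1* (12041 bases) and *Tpm1* (6485 bases) include exons of several isoforms, so their level per kb is understated. The table gives 1 value per gene, and muscle and non-muscle isoforms of these genes were not separated.

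**Figure D1:**
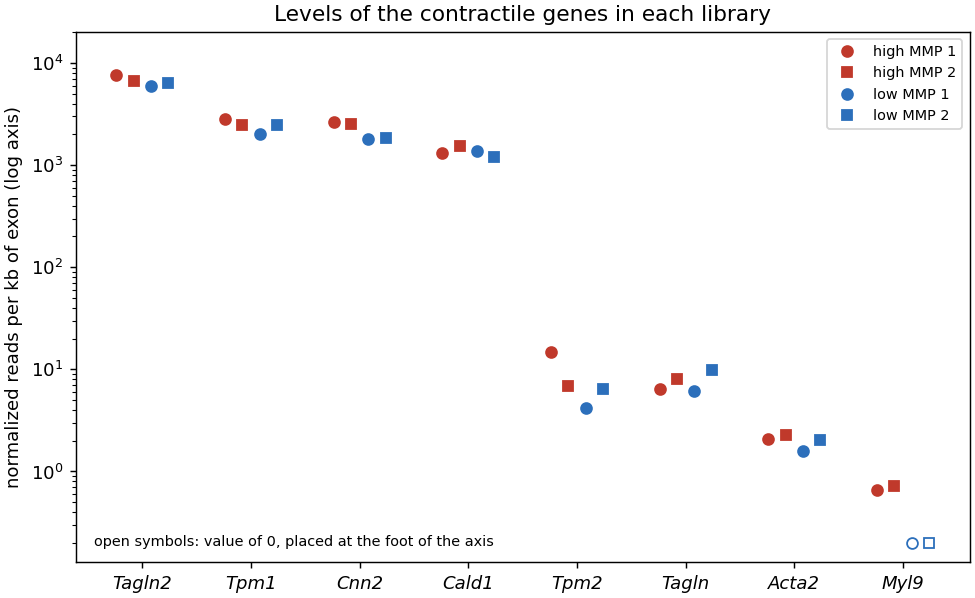
Normalized reads per kb of exon (log axis) for the 8 measured contractile genes, 1 symbol per library (red, high MMP; blue, low MMP; circle, replicate 1; square, replicate 2). *Tagln2*, *Tpm1*, *Cnn2* and *Cald1* lie between 1206 and 7702 per kb in all 4 libraries, and the others lie at or below 14.8.

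Within families, the widely expressed relative was far above the smooth muscle marker in each library. Per kb, *Tagln2* was 1189 and 834 times the level of *Tagln* in the high MMP libraries and 972 and 645 times in the low MMP libraries. *Actb*, the main cytoplasmic actin, was 13474 to 18071 times *Acta2*. *Tpm1* was 189 to 486 times *Tpm2*. *Myl12a*, a regulatory light chain of non-muscle myosin, had 2914 to 3492 normalized reads, where *Myl9* had at most 0.837. Exact 75-base matches between member transcripts and transcripts of other genes on the same strand were absent for all 9 genes. These small values were therefore not made of full 75-base reads that match a relative exactly. The search did not cover shorter reads or reads with a mismatch.

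*Cnn2* (ENSMUSG00000004665, GRCm38 chromosome 10, 79988584 to 79996062, plus strand, protein-coding) encodes the calponin found in both smooth muscle and non-muscle cells, an actin-binding protein that restrains myosin. High MMP cells had 6479 and 6249 normalized reads and low MMP cells 4409 and 4574. Both high values lay above both low values, and the replicates of each group were within 0.05 of each other in log2. Means were 6364 ± 163 for high MMP and 4492 ± 117 for low MMP (SD over 2 libraries), 0.50 apart in log2 (SE 0.08, 95% interval 0.28 to 0.73), or 1.42-fold on the log2(value + 1) scale. This passed an unadjusted p (0.00319) but not the adjustment over all genes in limma (adjusted p 0.472), while the alternatives fixed with the design ranged from an adjusted p of 0.0174 to 0.909. On the recovered reads, DESeq2 called it (adjusted p 0.0174), and edgeR's quasi-likelihood test did not, with no block (0.580) or with the replicate number as a block (0.481). DESeq2 called 0.985% of the 11974 genes it adjusted, and *Cnn2* was the only member called. *Acta2*, *Tagln* and *Myl9* received no adjusted p from DESeq2, so they could not be called there. With the replicate block, edgeR called 0.525% of all genes and 0 members.

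The other measured calponin, *Cnn3*, overlapped between the groups. It had 6788 and 5762 normalized reads in high and 5678 and 6185 in low MMP cells (log2 difference 0.08, SE 0.12, limma adjusted p 0.924). Per kb, the ratio of *Cnn2* to *Cnn3* was 1.18 and 1.34 in high MMP cells and 0.959 and 0.913 in low MMP cells. The ratio of *Cnn2* to *Tagln2* was 0.342 and 0.381 in high and 0.300 and 0.294 in low MMP cells. Against *Actb* the ratio was 0.0704 and 0.0825 in high and 0.0689 and 0.0655 in low MMP cells, so that the closest libraries of both groups were almost level. These 3 ratios did not overlap between groups, but an exact permutation test of 2 against 2 libraries cannot go below a two-sided p of 0.333, so no test was made of them.

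*Tagln2* (ENSMUSG00000026547, chromosome 1, 172500047 to 172507380, plus strand), the transgelin of many non-muscle cells, had 16035 and 13891 normalized reads in high and 12429 and 13156 in low MMP cells. The groups did not overlap, yet the high MMP replicates were further apart (0.21 in log2) than high MMP replicate 2 was from either low MMP library (0.16 and 0.08). The log2 difference was 0.22 (SE 0.12, 95% interval -0.12 to 0.56, limma adjusted p 0.690). Its smooth muscle relative *Tagln* (ENSMUSG00000032085, chromosome 9, 45929619 to 45936058, minus strand) had 12.9 and 15.9 normalized reads in high and 12.2 and 19.5 in low MMP cells, on 14 to 22 reads. The lowest and the highest value were both low MMP libraries. Its log2 difference of -0.10 (SE 0.36) turned to 0.04 without high MMP replicate 1 and to 0.21 without low MMP replicate 2. With 36 reads in each group, the depth-corrected ratio of high to low was 0.905 (exact 95% interval 0.554 to 1.48, counting error only).

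The *Tagln* value carries a further limit. An antisense gene, *Gm48529*, shares 1241 exon bases with it, *Pcsk7* shares 108, and 53.3% of the 75-base stretches of *Tagln* transcripts lie opposite one of them. *Gm48529* itself had 24.3 and 26.8 normalized reads in high and 20.9 and 28.3 in low MMP cells. Whether the counting used strand is not stated, and without it reads of *Tagln* and *Gm48529* cannot be told apart. No other member shared exon bases with another gene, although *Gm13861*, *Npn2* and *Gm14547* overlap the span of *Cald1*.

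Tropomyosins are coiled coils that lie along actin filaments and gate the access of myosin. *Tpm1* (ENSMUSG00000032366, chromosome 9, 67022590 to 67049406, minus strand) had 18153 and 15906 normalized reads in high and 13211 and 15870 in low MMP cells. High and low MMP replicate 2 were almost equal, so that the groups are separate by the smallest of margins. The log2 difference was 0.23 (SE 0.15, 95% interval -0.18 to 0.64, limma adjusted p 0.734), and it was 0.10 without low MMP replicate 1.

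*Tpm2* (ENSMUSG00000028464, chromosome 4, 43514711 to 43523765, minus strand), a tropomyosin prominent in muscle, had 43.2 and 20.1 normalized reads in high and 12.2 and 18.6 in low MMP cells, on 57, 24, 14 and 21 reads. High MMP replicate 1 stood above the rest, and high MMP replicate 2 was close to low MMP replicate 2. Its log2 difference of 0.92 (SE 0.48, 95% interval -0.39 to 2.23, limma adjusted p 0.664) was 0.39 without high MMP replicate 1 and 1.46 without high MMP replicate 2. Summed over libraries, 81 against 35 reads gave a depth-corrected ratio of 2.10 (exact 95% interval 1.39 to 3.21), which covers counting error only and not the spread between the high MMP libraries.

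The other tropomyosins give the context of the family. *Tpm4* had 16633 and 12619 normalized reads in high and 10290 and 11567 in low MMP cells, with no overlap (log2 difference 0.41, SE 0.18, limma adjusted p 0.578). *Tpm3* had 7362 and 6782 in high and 6902 and 6936 in low MMP cells (0.03, SE 0.09, adjusted p 0.971). Per kb, *Tpm1* was 0.371 and 0.428 of *Tpm4* in high and 0.436 and 0.466 of it in low MMP cells. The level of *Tpm1* per kb is understated, as given above, and in normalized reads *Tpm1* was above *Tpm4* in each library. This ratio therefore does not rank these genes by abundance.

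*Cald1* (ENSMUSG00000029761, chromosome 6, 34598500 to 34775473, plus strand) encodes caldesmon, which binds actin, myosin and tropomyosin and is made as muscle and non-muscle isoforms. It had 15868 and 18474 normalized reads in high and 16517 and 14523 in low MMP cells. High MMP replicate 1 lay between the low MMP libraries, so the groups overlapped. The log2 difference was 0.14 (SE 0.14, 95% interval -0.24 to 0.53, limma adjusted p 0.842), and 0.03 to 0.25 when each library was left out in turn.

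**Figure D2:**
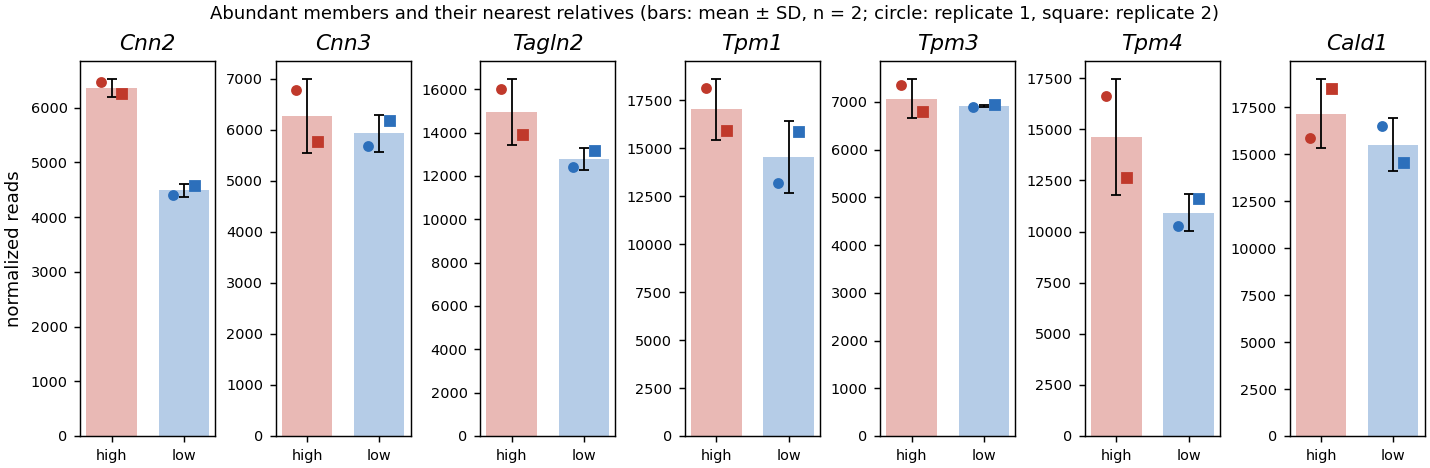
Normalized reads (linear axis from 0) of the abundant members *Cnn2*, *Tagln2*, *Tpm1* and *Cald1* and of the relatives *Cnn3*, *Tpm3* and *Tpm4*, with bars for the mean, error bars for the SD (n = 2) and symbols for each library (red, high MMP; blue, low MMP). *Cnn2* shows the tightest replicates relative to the gap between groups, 6364 against 4492, whereas *Cnn3* and *Cald1* overlap.

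*Acta2* (ENSMUSG00000035783, chromosome 19, 34241090 to 34255590, minus strand), the actin of smooth muscle and myofibroblasts, had 4.55 and 5.02 normalized reads in high and 3.49 and 4.43 in low MMP cells. This was 6 reads in each high MMP library and 4 and 5 in the low MMP libraries. The order of the libraries thus rested on single reads, the depth-corrected ratio was 1.21 (exact 95% interval 0.467 to 3.24), and no difference could be detected with so few reads (log2 difference 0.23, SE 0.33, limma adjusted p 0.908). *Myl9* (ENSMUSG00000067818, chromosome 2, 156775420 to 156781658, plus strand), the regulatory light chain of smooth muscle myosin, had 1 read in each high MMP library and 0 in each low MMP library. Both groups were under a floor of 3 reads, so no fold is given. The limma test nevertheless gave *Myl9* an unadjusted p of 0.0404 (adjusted p 0.472), with the libraries of each group nearly equal on the log2 scale, and edgeR on the reads gave an unadjusted p of 0.105.

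Considered together, 7 of the 8 measured members had a higher mean in high MMP cells. Of the 6 members averaging 10 or more, all but *Tagln* had a log2 difference above 0, as did 41.9% of all genes at that level. The median log2 difference of the members was 0.23, where the median over all genes was -0.04. For the 6 members that averaged 10 or more it was also 0.23, against -0.03 over the 12902 genes at that level. In limma 0 members and 0 genes passed the adjusted threshold of 0.05, and by unadjusted p under 0.05, 2 members were higher (*Cnn2* and *Myl9*) and 0 lower, where 3.95% of all genes were higher and 6.01% lower. In 6 members both high MMP libraries were above both low MMP libraries, which held for 13.5% of all genes, and in 0 members they were below, which held for 24.5%. That count includes *Myl9* and *Acta2*, which rest on differences of 1 or 2 reads, and *Tpm1*, whose margin was slight. The 7 with a higher mean also include *Myl9* and *Acta2*. When each library was left out in turn, the median log2 difference of the members was 0.21 to 0.36. How many members were higher at an unadjusted p under 0.05 varied with the library left out. That number was 1, *Cnn2*, with the replicate number as a block in limma (2.13% of all genes), in edgeR with no block (3.22%) and in DESeq2 (1.83%). With that block edgeR gave 2, *Cnn2* (p 0.0079) and *Tpm2* (p 0.014), where 1.98% of all genes were higher, and neither passed the adjusted threshold there (edgeR adjusted p 0.481 and 0.646).

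**Figure D3:**
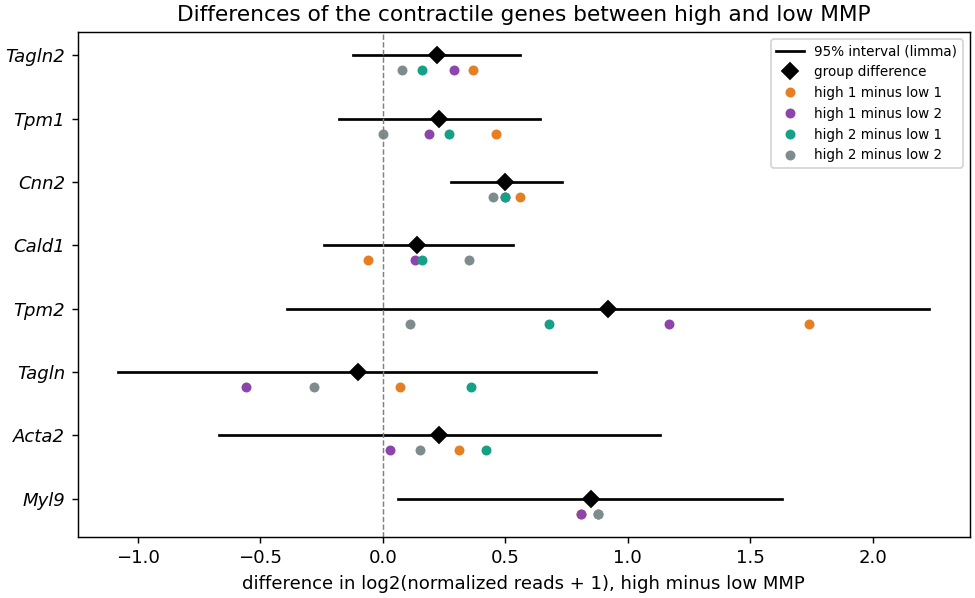
Difference in log2(normalized reads + 1), high minus low MMP, for the 8 measured members, with the group difference (diamond), its 95% interval from limma (line) and the 4 differences between single libraries (dots). The interval of *Cnn2* (0.28 to 0.73) is the narrowest and its 4 dots lie together, those of *Tpm2* run from 0.11 to 1.74, and those of *Tagln* lie on both sides of 0. *Myl9* rests on 1 read per high MMP library.

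The regulators of these genes were examined next. *Srf* had 1447 and 1649 normalized reads in high and 1313 and 1377 in low MMP cells (log2 difference 0.20, SE 0.10, limma adjusted p 0.635). *Mrtfa*, which actin monomers hold in the cytoplasm, had 1159 and 1296 in high and 1058 and 1054 in low MMP cells (0.21, SE 0.09, adjusted p 0.568). *Mrtfb* had 840 and 777 in high and 717 and 685 in low MMP cells (0.21, SE 0.09, adjusted p 0.567). For each of the 3, both high MMP libraries were above both low MMP libraries, as in 14.3% of genes averaging 10 or more, and none passed even an unadjusted p of 0.05 in limma. *Myocd*, the coactivator restricted to smooth and cardiac muscle, had no row.

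Among SRF-dependent genes of the cytoskeleton and focal adhesions, 13 of the 15 listed had a mean of at least 10, and none passed the adjusted threshold in limma. By unadjusted p, 5 of these 13 were higher and 0 lower, where 2.86% and 4.77% of the 12902 genes at that level were. Both high MMP libraries were above both low in 10 and below in 0, against 14.3% and 23.7% of genes at that level. The median log2 difference of the 13 was 0.22. The largest were those of *Csrp1*, a LIM protein that binds actinin (0.43, SE 0.13), *Pdlim5*, another LIM-domain scaffold (0.41, SE 0.10), *Zyx*, the focal adhesion protein zyxin (0.41, SE 0.11), and *Filip1l* (0.36, SE 0.13), and their adjusted p in limma was 0.472 to 0.493. *Zyx* had 6247 and 7006 normalized reads in high and 4763 and 5186 in low MMP cells. SRF also controls the cytoplasmic actins, and *Actg1* had 30888 and 25723 in high and 17607 and 20382 in low MMP cells (0.57, SE 0.16, limma adjusted p 0.472, DESeq2 adjusted p 0.0153). *Actb* had 100227 and 82532 against 69677 and 76064 (0.32, SE 0.21, limma adjusted p 0.733).

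Of the 13 myosin II genes and regulators outside the members with a mean of at least 10, 5 were higher and 1 lower in both high MMP libraries than in both low MMP libraries, against 14.3% and 23.7% of all genes at that level, with a median log2 difference of 0.07. The largest were *Ppp1r12b*, a targeting subunit of myosin phosphatase (0.48, SE 0.14, limma adjusted p 0.472), and *Myl12b*, a regulatory light chain (-0.48, SE 0.21, adjusted p 0.574). *Ppp1r12a* (0.21, SE 0.11, adjusted p 0.657) and *Myh14* (0.26, SE 0.30, adjusted p 0.861) followed. The caps of the pointed filament end differed little, with *Tmod3* at 0.08 (SE 0.08) and *Tmod2* at 0.12 (SE 0.32, adjusted p 0.811 and 0.967).

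Late markers of smooth muscle did not form a group in these cells, since 3 of 11 had a mean of at least 10. They included *Smtn*, an actin-binding protein also present in non-muscle cells as a shorter form (4883 and 6268 in high, 4461 and 4270 in low MMP cells, 0.34, SE 0.15) and *Itga8* (0.20, SE 0.19), for which limma gave an adjusted p of 0.578 and 0.822. The myoepithelial markers with a mean of at least 10 were *Cdh3* (0.70, SE 0.24), *Krt17* (0.46, SE 0.19) and *Krt14* (0.32, SE 0.10), with an adjusted p of 0.474, 0.563 and 0.472. In these 3 both high MMP libraries were above both low, as in 14.3% of genes at that level. Mammary epithelial markers had a median of -0.09, with *Cdh1*, E-cadherin, lower in both high MMP libraries (-0.34, SE 0.12, adjusted p 0.498), *Cldn4* higher in both (0.25, SE 0.10, adjusted p 0.549) and *Epcam* and *Krt8* overlapping (-0.16, SE 0.12, and -0.09, SE 0.25). Of the fibroblast and pericyte markers, *Pdgfra* alone had a mean of at least 10, with 319 and 363 in high and 536 and 589 in low MMP cells (-0.72, SE 0.11, limma adjusted p 0.472, DESeq2 adjusted p 0.0399). The list did not go 1 way. Of its 6 markers with a row, 2 were higher and 3 lower in both high MMP libraries than in both low. Over all genes these shares were 13.5% and 24.5%. The median log2 difference of the 6 was 0.01. *Cd68* was the leukocyte marker with a mean of at least 10 and overlapped between groups (-0.35, SE 0.50).

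**Figure D4:**
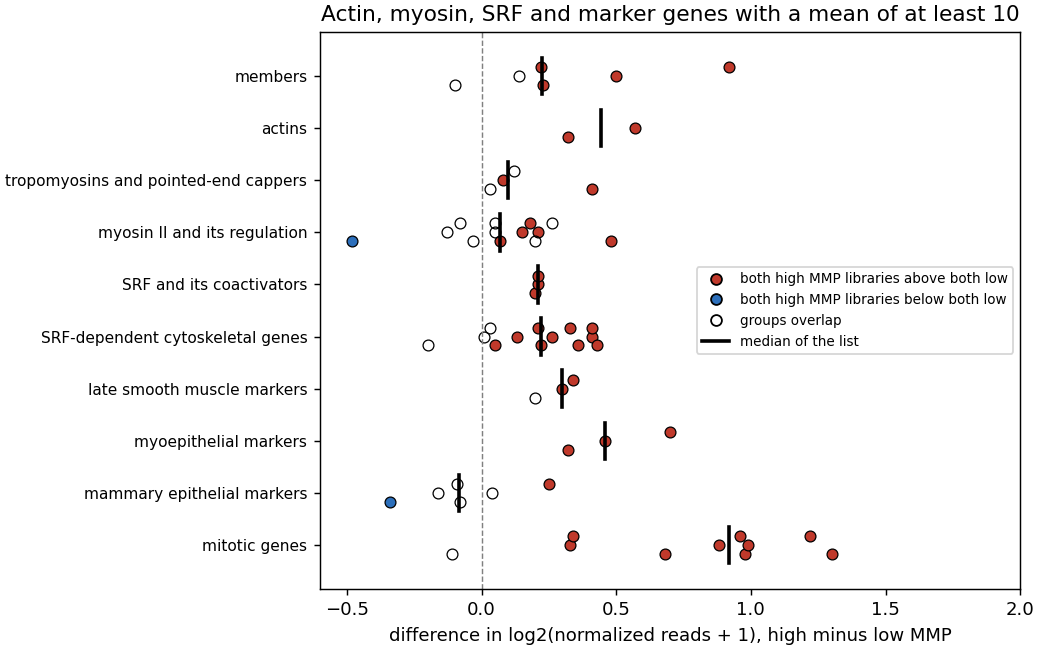
Difference in log2(normalized reads + 1), high minus low MMP, for genes averaging 10 or more in the members and 9 other lists (members removed from these), 1 dot per gene, with a line at each list's median. Red dots mark genes with both high MMP libraries above both low, blue dots the reverse, and open dots overlap. The SRF-dependent genes have a median of 0.22 and the mammary epithelial markers -0.09, and the mitotic genes lie furthest to the right, with a median of 0.92.

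Across the 4 libraries, the centred log2 profile of the 6 members averaging 10 or more had a median of 0.213 and 0.055 in high and -0.256 and -0.118 in low MMP cells. Among 9995 other genes averaging 100 or more, the nearest profiles by root mean square distance included those of *Pcid2* (0.0308) and *Arf3* (0.0313). Both had both high MMP libraries above both low, which follows from how they were chosen. *Arf3*, a small GTPase of the Golgi, had 3674 and 3228 normalized reads in high and 2570 and 2880 in low MMP cells (log2 difference 0.34, SE 0.11, limma adjusted p 0.472). This likeness is over 4 libraries and carries no test.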

How the data were processed

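RNA-sequencing values of 2 high MMP and 2 low MMP samples of 4T1 cells were analysed, grouped by their titles. Per the labels and the study's methods, RNA from 100000 sorted cells (200 ng) entered a stranded mRNA preparation. The authors aligned the reads to mouse transcripts of GRCm38 (mm10) and quantified genes with STAR (the submitters' processing notes also name HTSeq), scaled by library size and dropped genes seen in too few samples. Tool versions, annotation release and use of strand are not given in the sources used here. The deposited values are therefore a normalized signal per gene, each column summing to 20000000. All values were whole multiples of 1 step per column, and whole reads were recovered for 100.0% of them (within 0.01 read). The table held 0 columns of no sample.

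Symbols, positions and merged exon lengths came from GENCODE M21 on GRCm38, in which 19993 of 20197 identifiers had a match. log2(value + 1) was tested with limma 3.58.1 in R 4.3.3 (eBayes with trend, group as the only factor), with Benjamini-Hochberg adjustment over all 20197 genes and no filter. A fold change on this scale understates changes of low genes. Fits to the recovered reads with edgeR 4.0.16 (quasi-likelihood, TMM) and DESeq2 1.42.0, other pseudocounts, filters and scalings, the replicate block and leaving out each library were alternatives. edgeR with no block called 0 genes (1423 at an unadjusted p under 0.05). On simulated counts of 20197 genes in 2 against 2 libraries, of which 200 (averaging 50 reads or more) were changed 4-fold, limma recovered 142 and edgeR 200, each with 0 false calls. The simulation gave all genes the same fixed dispersion, and smaller changes were not simulated. It therefore does not give the power or error of these tests for the members. Depth-corrected ratios used exact binomial intervals of summed reads.

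The members and lists were chosen with earlier results of these data known. Named genes were the members, up to 4 other genes per list, those furthest from 0 among genes averaging 10 or more, SRF and its coactivators, the 3 nearest profiles and overlapping genes. *Actb*, *Myl12a* and the defining markers at or near 0 are named for comparison of levels, and *Mki67* as the mitotic gene that overlapped between groups. A few genes that this rule names are not reported here.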

Additional observations from a re-analysis of the deposited data

How the results depend on the processing

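The direction of *Cnn2*, *Tagln2*, *Tpm1*, *Tpm2*, *Cald1*, *Acta2* and *Myl9* was the same in all alternatives that could be computed for them (15 to 17 each). *Tagln* turned to 0.02 with quantile normalization, and ranged from -0.42 to 0.21 when libraries were left out. Genes past the adjusted threshold numbered 106 in edgeR with the replicate block and 118 in DESeq2, against 0 in limma. Genes at an unadjusted p under 0.05 numbered 798 higher and 1213 lower, and changed to 481 higher with a mean of at least 1, 381 and 678 with a mean of at least 10 (fewer genes tested), 431 and 624 with the replicate block in limma, 399 and 519 with it in edgeR, 370 and 290 in DESeq2, and 772 lower in edgeR with no block; the cause was not tested. Leaving out libraries gave 277 to 1105 higher and 548 to 2248 lower. Members at an unadjusted p under 0.05 numbered 1 in place of 2 with a pseudocount of 10, both filters, the limma block, edgeR with no block and DESeq2, and 0 to 3 when libraries were left out, which moved the median difference from 0.23 to between 0.21 and 0.36. Both filters removed *Myl9* from the test, so the fall from 2 to 1 there followed from the filter. With a pseudocount of 10 in limma, 580 of all genes were higher at an unadjusted p under 0.05, against 798 in the main fit. When a library was left out, a group left with 1 library was assumed to vary like the other. The labels do not say that a number marks 1 experiment, and same-numbered samples did not deviate together (correlation across 12902 genes -0.421), so the numbers were not taken as pairs. With crossed numbers, an alternative chosen after seeing the data, edgeR called 733 genes and limma 0, and edgeR had 2 members past the adjusted threshold (3.63% of all genes) and 4 higher at an unadjusted p under 0.05 (5.41% of all genes). Depth limits *Acta2*, *Myl9*, *Tagln* and *Tpm2*, on 0 to 57 reads per library.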
